A study of Rattus norvegicus with 36 samples.

Results

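Cytosolic sulfotransferases and the enzyme that makes their cofactor were followed in rat liver after exposure to hexabromocyclododecane (HBCD), a brominated flame retardant. The genes were Sult2a6, Sult2a2, Sult1a1, Sult1b1, Sult1e1 and Papss2, and every probe set whose gene symbol in the platform annotation was one of these 6 names was taken. That gave 7 probe sets of the 31042 tested, with 2 for Papss2 and 1 for each of the others, and no probe set listed one of these genes beside another symbol. All animals were male Sprague Dawley rats dosed by oral gavage in corn oil on 5 consecutive days from 7 weeks of age, with the left liver lobe sampled 1 day after the last dose. The vehicle group received corn oil alone, and the treated groups received HBCD, with 641 mg/kg the highest dose and 64.1, 6.41, 0.641 and 0.06 mg/kg below it. Each of the 6 groups had 6 arrays, 36 in all, and their number limits the precision. Whether each array came from its own rat is not stated in the labels, and the p-values therefore cover only the spread from array to array, part of which may be technical.

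Sulfotransferases of the cytosol pass a sulfonate group from the donor 3'-phosphoadenosine-5'-phosphosulfate (PAPS) to hormones, bile acids and foreign compounds, which makes them more soluble in water. PAPS is made from sulfate and ATP by bifunctional synthases, and PAPSS2 is one of them. Members of the SULT1 family act mostly on phenols, including thyroid hormones and estrogens, and SULT2A enzymes act on hydroxysteroids and bile acids. In rodent liver the nuclear receptors CAR, PXR and FXR are known to act on Sult2a genes, and the levels of several sulfotransferases differ between males and females.

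The promoters of the Sult2a genes are shown first, as Sult2a6 carried the largest change among the 6 genes. In the reference gene table Sult2a6, Sult2a1 and Sult2a2 lie along the same stretch of chromosome 1, with Sult2a1 between the other two, whereas Sult1e1 and Sult1b1 flank Sult1d1 on chromosome 14. All 6 member promoters, each from 250 bases before to 50 after the gene start, were found in the RefSeq sequences of build GRCr8. An inverted repeat without a spacer (IR0), a motif bound by several nuclear receptors together with RXR, was searched as the element GNTCA followed directly by its mirror TGANC, which together read the same on both strands. It was found in Sult2a6 and Sult2a2 and in none of the other 4 member promoters, and in 0.326% of all 33469 promoters of that length. The windows below run 5′ to 3′ along the strand of the gene, and the capitals mark the 10 bases that matched.
Sult2a6: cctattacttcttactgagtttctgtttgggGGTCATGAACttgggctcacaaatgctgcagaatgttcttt
Sult2a2: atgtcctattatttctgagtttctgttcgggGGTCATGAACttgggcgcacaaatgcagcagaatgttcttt
Sult2a1: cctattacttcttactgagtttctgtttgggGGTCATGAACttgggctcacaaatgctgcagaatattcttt
They lie on the minus strand of GRCr8 at chr1:84097979-84098050 for Sult2a6, chr1:85104694-85104765 for Sult2a2 and chr1:84639118-84639189 for Sult2a1, a gene outside the 6 that is shown for its likeness. The match begins 211 bases before the start in Sult2a6 and Sult2a1 and 202 bases before it in Sult2a2. Of the 72 bases shown, Sult2a6 shares 71 with Sult2a1 and 59 with Sult2a2. Over the 250 bases before the start, aligned with gaps, identity was 98.0% between Sult2a6 and Sult2a1 and 83.3% between Sult2a6 and Sult2a2, against 45.4% between Sult1b1 and Sult1e1. Direct repeats of the element AGNTCA with a spacer of 4 bases (in 0.0568% of promoters) or 3 bases (0.0777%), the antioxidant response core TGACNNNGC (12.1%) and the HNF1 palindrome of GTTAAT and ATTAAC around 1 base (0.00299%), each searched on both strands, were in none of the 6 member promoters. TATAAA, searched in the same way, was in Sult2a6, Sult2a2 and Papss2, and in 14.2% of all promoters. In Papss2 it was only on the strand opposite to the gene. A match describes these letters only and does not show that a receptor bound there. Sult2a1, with the same 10 bases, had mean log2 levels of 2.16 in vehicle and 2.20 at 641 mg/kg (limma adjusted p = 0.9). Both lay below the background limit given in the next paragraph, so they do not show whether that gene responded. Whether the site had a part in the change of Sult2a6 was not tested.

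Level against background was described with genes whose transcripts belong to other tissues, such as photoreceptor, sperm, pituitary and muscle genes. Of 40 such genes 37 had a probe set. Their median was 3.59 on the log2 scale over all arrays and the 95th percentile of their values was 5.06, which is called the background limit here. Sult1e1, Sult1b1, Sult1a1, Sult2a6 and both Papss2 probe sets lay above that limit in all 36 arrays. Their mean levels exceeded the background median by 9.30, 8.97, 8.76, 6.01, 7.31 (probe set 1376047_at) and 5.83 (probe set 1395721_at) log2 units. Sult2a2 lay below the limit in all 36 arrays, between 2.23 and 3.01, and its mean stood 1.03 below the background median (a log2 difference of -1.03). Sult2a1 (mean 2.18) and Sult1d1 (mean 2.04), sulfotransferase genes that lie between members on the chromosomes, also lay below the limit. Probe sequences were not used here, so how far transcripts of the near-identical Sult2a copies reach each other's probe sets was not tested.

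**Figure D1:**
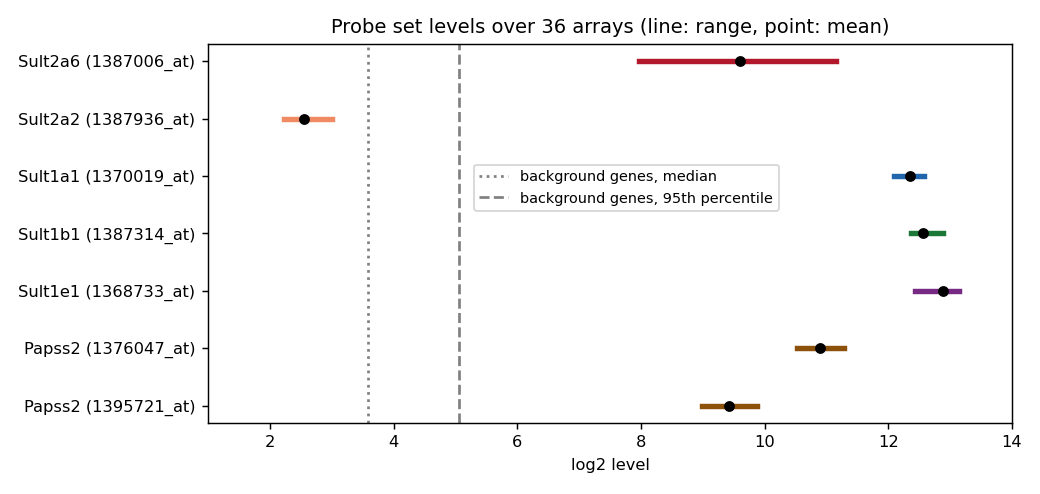
Log2 level of each probe set over all 36 arrays on the horizontal axis, with the range as a line, the mean as a point, and the median (3.59) and 95th percentile (5.06) of the background genes as vertical lines. Sult2a2 sits left of both lines, and the other 6 probe sets lie wholly to the right of them.

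Sult2a6, a hydroxysteroid and bile acid sulfotransferase, had the largest response. Log2 levels in the vehicle arrays ran from 7.97 through a median of 9.05 to 9.81. The medians at 0.06, 0.641, 6.41 and 64.1 mg/kg were 9.23, 9.49, 9.54 and 9.57, within ranges of 8.56 to 9.81, 8.42 to 9.88, 9.14 to 9.89 and 8.98 to 10.65 in that order. At 641 mg/kg the arrays ran from 10.44 through 10.75 to 11.16. All 6 arrays of 641 mg/kg lay above every vehicle array, while each lower dose overlapped with vehicle. The group mean rose from 8.98 ± 0.77 (SD, n = 6) to 10.77 ± 0.27 (SD, n = 6), a 3.46-fold increase (95% CI 2.31 to 5.19; limma adjusted p = 0.000193).

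The group means of Sult2a6 increased at every dose step, from 8.98 to 9.22, 9.37, 9.51, 9.72 and 10.77, and 0.3% of all probe sets had means that increased at every step. The slope over the 6 dose ranks was 0.30 log2 units per step (SE 0.049; limma adjusted p = 0.000199). No lower dose passed the test against vehicle. At 6.41 mg/kg all 6 arrays lay above the vehicle mean, with 1.45-fold (0.965 to 2.17; limma adjusted p = 1), and at 64.1 mg/kg the value was 1.67-fold (1.11 to 2.50; limma adjusted p = 0.704). A slope over vehicle and the 4 lower doses alone, added after the values were seen, was 0.18 per step (SE 0.068; unadjusted p = 0.0146, limma adjusted p = 0.898). The change from 64.1 to 641 mg/kg was 2.07-fold (1.38 to 3.11; limma adjusted p = 0.151), which did not pass, and 4 of the 6 arrays at 641 mg/kg lay above every array at 64.1 mg/kg.

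Sult2a6 was also the most variable of the 7 probe sets within groups. Its standard deviation within groups was 0.54 log2 units, above that of 99.0% of probe sets whose mean exceeded the background limit, against a median of 0.129. The array numbered 1 was the lowest in 5 of the 6 groups, 6.41 mg/kg excepted. For the other probe sets it was the lowest in only 0 to 2 groups. With the replicate number as a block the rise at 641 mg/kg had the same size, 1.79 on the log2 scale, with a limma adjusted p of 2.25e-05. At 64.1 mg/kg the Sult2a6 levels of arrays 2, 3 and 4 were 10.65, 9.25 and 10.30, and in these arrays macrophage markers had their lowest means, 7.80, 7.51 and 7.68. In arrays 1, 5 and 6 Sult2a6 stood at 8.98, 9.43 and 9.70, with macrophage markers at 8.35, 8.50 and 8.33. Arrays 2 and 4 had the highest Sult2a6 levels of the group, so a fit without arrays 2, 3 and 4 had to give a smaller change. Without arrays 2, 3 and 4 the log2 change of Sult2a6 at 64.1 mg/kg was 0.39 in place of 0.74 (limma adjusted p = 1), and the part of the macrophage markers in it was not tested.

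**Figure D2:**
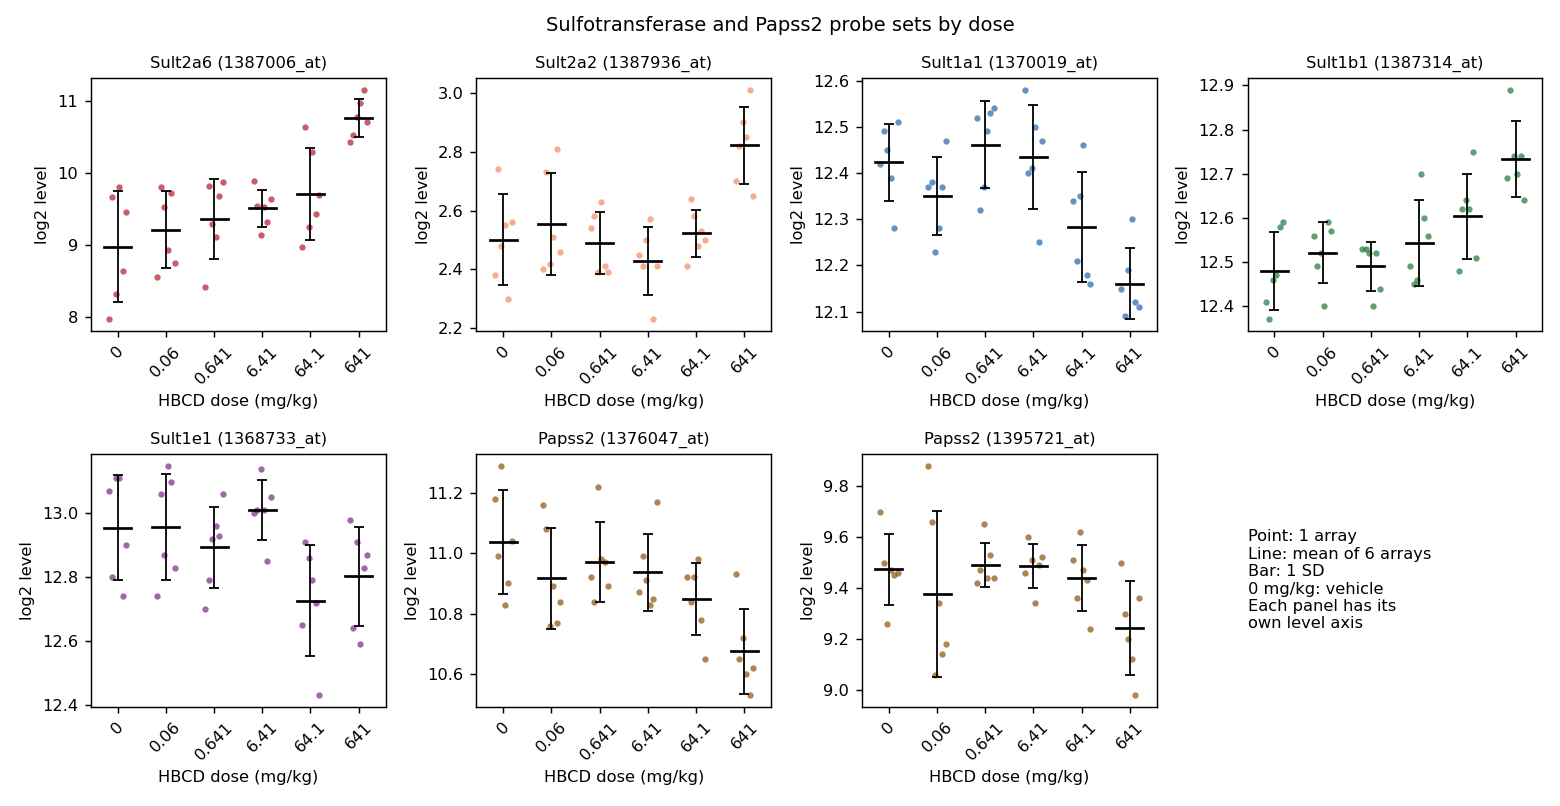
Log2 level of each probe set (vertical axis, own scale in each panel) against HBCD dose in mg/kg, with 0 for vehicle, where points are single arrays, lines are means and bars are 1 SD (n = 6 per group). Sult2a6 climbs from a mean of 8.98 to 10.77, Sult1b1 ends higher and Sult1a1 and Papss2 end lower, all with far narrower level axes than Sult2a6.

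The probe set of Sult2a2, a sulfotransferase that is female-predominant in rat liver, was called higher at 641 mg/kg but stayed below the background limit in every array. Vehicle arrays ran from 2.30 through a median of 2.51 to 2.74, and those at 641 mg/kg from 2.65 through 2.83 to 3.01, so the groups overlapped and 4 of the 6 treated arrays exceeded all vehicle arrays. The log2 difference was 0.32 (SE 0.076; limma adjusted p = 0.0176), from 2.50 ± 0.15 to 2.82 ± 0.13 (SD, n = 6 each). No fold is given, since both groups lay under the background limit. Its means at the 4 lower doses stayed between 2.43 and 2.56. Leaving out replicate 5 of the vehicle group ended the call (adjusted p = 0.0662), as did leaving out replicate 5 at 641 mg/kg (adjusted p = 0.0603). All 6 arrays at 641 mg/kg also lay above every array at 64.1 mg/kg, as in 0.412% of all probe sets, but the log2 difference of 0.30 did not pass (limma adjusted p = 0.106), except without replicate 6 of 641 mg/kg (adjusted p = 0.0498).

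The SULT1 genes had smaller log2 changes than Sult2a6, and not in 1 direction. Sult1b1, whose enzyme acts on thyroid hormones and small phenols, rose 1.19-fold at 641 mg/kg (95% CI 1.10 to 1.28; limma adjusted p = 0.0064). Vehicle arrays lay between 12.37 and 12.59 with a median of 12.47, and arrays at 641 mg/kg between 12.64 and 12.89 with a median of 12.72. The groups did not overlap, although the change in the mean was only from 12.48 ± 0.088 to 12.73 ± 0.085 (SD, n = 6 each). The medians between were 12.54, 12.52, 12.53 and 12.62 from 0.06 to 64.1 mg/kg. At 64.1 mg/kg 4 of 6 arrays exceeded all vehicle arrays, with 1.09-fold (1.01 to 1.17; limma adjusted p = 0.783). Sult1b1 had the smallest spread within groups of the 7 probe sets, 0.08 log2 units.

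Sult1a1, the phenol sulfotransferase, fell to 12.16 ± 0.078 from 12.42 ± 0.081 (SD, n = 6 each) at 641 mg/kg. The level was 0.834-fold of vehicle (95% CI 0.768 to 0.906; limma adjusted p = 0.0107). Vehicle arrays ran from 12.28 through 12.43 to 12.51 and those at 641 mg/kg from 12.09 through 12.13 to 12.30, so 5 of the 6 treated arrays lay below all vehicle arrays and 1 overlapped. The medians at 0.06, 0.641, 6.41 and 64.1 mg/kg were 12.37, 12.51, 12.44 and 12.28, without an order by dose below 64.1 mg/kg. At 64.1 mg/kg it stood at 0.909-fold (0.837 to 0.987; limma adjusted p = 0.74).

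Sult1e1, the estrogen sulfotransferase, is male-predominant in rat liver, and it was the one gene of the 6 with no call at any dose. Vehicle arrays ran from 12.74 through 12.99 to 13.11, and arrays at 641 mg/kg from 12.59 through 12.85 to 12.98. At 641 mg/kg it stood at 0.900-fold (95% CI 0.798 to 1.01; limma adjusted p = 0.516). Its lowest group was 64.1 mg/kg, with arrays from 12.43 through 12.75 to 12.91, where all 6 arrays lay below the vehicle mean at 0.854-fold (0.758 to 0.962; limma adjusted p = 0.69). Without arrays 2, 3 and 4 of that group, those with the lowest macrophage markers, its log2 change there was -0.35 in place of -0.23 (limma adjusted p = 0.821). These arrays also had the highest Sult1e1 levels of the group, 12.91, 12.86 and 12.79, so leaving them out had to make the fall larger. The interval at 641 mg/kg allows a fall of up to 1.25-fold, so the data do not show that this gene was unaffected.

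Papss2, the PAPS synthase, gave 2 probe sets that differed in the test. Probe set 1376047_at, the brighter, fell from 11.04 ± 0.17 to 10.68 ± 0.14 (SD, n = 6 each) at 641 mg/kg. The fall was 1.29-fold (95% CI 1.15 to 1.44; limma adjusted p = 0.0119). Its vehicle arrays ran from 10.83 through 11.02 to 11.29 and its 641 mg/kg arrays from 10.53 through 10.63 to 10.93, with 5 of 6 treated arrays below all vehicle arrays. The medians between were 10.87, 10.95, 10.89 and 10.88, and all 6 arrays at 64.1 mg/kg lay below the vehicle mean (0.875-fold, 0.780 to 0.983; limma adjusted p = 0.747). Probe set 1395721_at had the same sign and did not pass, at 0.853-fold (0.742 to 0.981; limma adjusted p = 0.334), with 641 mg/kg arrays from 8.98 to 9.50 against 9.26 to 9.70 in vehicle. The mean of both probe sets, tested once per gene, was called lower (log2 change -0.30; limma adjusted p = 0.039).

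**Figure D3:**
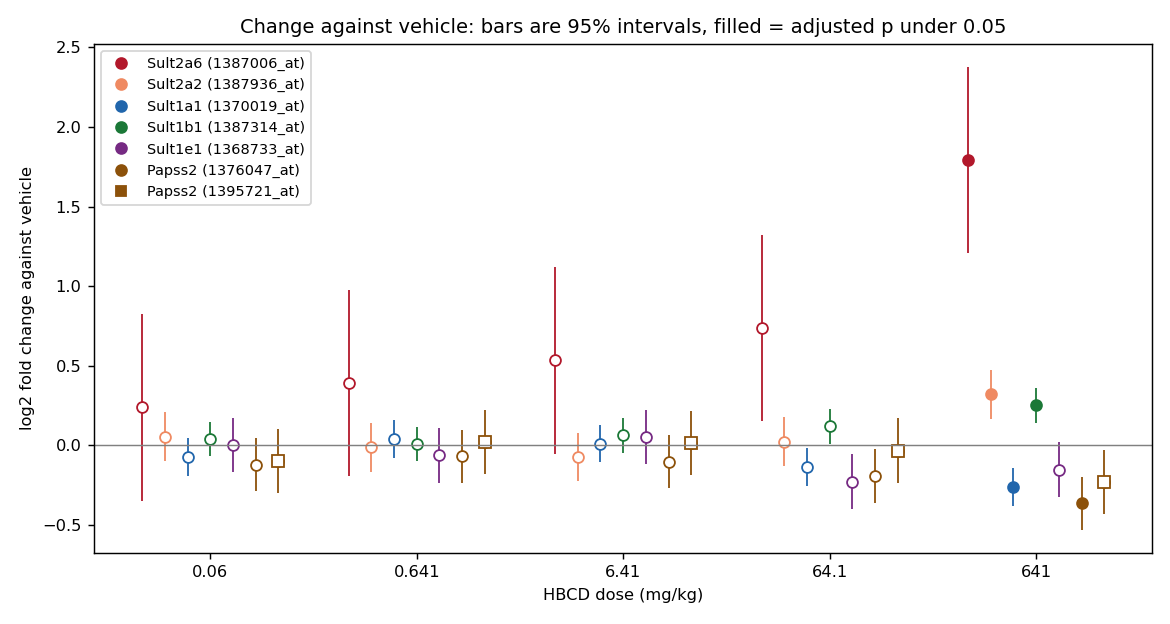
Log2 fold change against vehicle (vertical axis) for each probe set at each dose in mg/kg, with 95% confidence intervals from limma and filled symbols where the adjusted p was under 0.05. The filled symbols are all at 641 mg/kg, where Sult2a6 reaches 1.79 and the other called probe sets lie between -0.36 and 0.32.

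Across the 7 probe sets, 5 were called at 641 mg/kg, 3 higher and 2 lower, where 1.65% of all probe sets were called (1.13% higher and 0.512% lower), and 6 had an unadjusted p under 0.05, against 11.4%. Sult2a6 and Sult1b1 were the 2 whose arrays at 641 mg/kg all lay above vehicle, as did 1.06% of all probe sets, and none lay wholly below vehicle, as 0.654% did. At 64.1 mg/kg none of the 7 was called by limma, against 0.0419% of all probe sets, and 5 had an unadjusted p under 0.05, against 5.94%. At 0.06, 0.641 and 6.41 mg/kg none of the 7 was called by limma, and 0% of all probe sets were. None of the 7 had an unadjusted p under 0.05 at these doses either, against 4.17%, 4.76% and 4.13% of all probe sets in that order. Between 641 and 64.1 mg/kg none was called by limma (0.242% of all probe sets), and 5 had an unadjusted p under 0.05 (9.15%). The slope over dose ranks was called for 4, Sult2a6 and Sult1b1 upward and Sult1a1 and Papss2 (1376047_at) downward, against 1.35% of all probe sets (0.902% upward and 0.445% downward). The slope of Papss2 (adjusted p = 0.0193) did not pass without replicate 3 of vehicle (0.0585) or replicate 5 of 641 mg/kg (0.0513), nor as the mean of its probe sets (0.1). All dose contrasts share the vehicle arrays. The F test over all doses called 4, Sult2a6 (adjusted p = 0.00309), Sult2a2 (0.0309), Sult1a1 (0.0133) and Sult1b1 (0.0427), against 0.773% of all probe sets, and only 1 to 2 without replicate 2, 3, 4 or 5 of 641 mg/kg. When vehicle and 641 mg/kg alone entered the fit, 2 probe sets were called at 641 mg/kg, Sult2a6 and Sult1a1, while Sult2a2 (adjusted p = 0.0794), Sult1b1 (0.0601) and Papss2 (0.0572) were not.

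From array to array within the dose groups, the 2 probe sets of Papss2 were the one pair whose correlation passed the test. As they measure the same gene, no pair of different genes passed. Deviations from the group means were correlated over the 36 arrays for the 15 pairs of the 6 probe sets above the background limit. The Papss2 probe sets gave Pearson r = 0.64 (permutation p = 0.00019, adjusted p = 0.00285) and Spearman rho = 0.65 (permutation p = 0.00018, adjusted p = 0.0027), and r = 0.75 without the 2 arrays farthest from the median. The permutations, 100000 for each pair, were two-sided and kept arrays within their group. In single groups, r of the Papss2 pair ran from -0.15 to 0.99. Of the other 14 pairs the largest was Sult2a6 with Papss2 (1376047_at), at r = -0.34 (permutation p = 0.067, adjusted p = 0.487), rho = -0.33 (permutation p = 0.0791, adjusted p = 0.479) and r = -0.35 without the 2 farthest arrays.

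Over all 36 arrays, the genes whose pattern was most like that of Sult2a6 were Glyatl2 (r = 0.80), Cbr4 (0.77), the steroid reductase Akr1d1 (0.76), Tmem134 (0.76) and the aldehyde oxidase Aox1 (0.74), among 7611 genes with a group mean of at least 6. For the brighter Papss2 probe set they were the proline dehydrogenase Prodh (r = 0.80), Synrg (0.77), the taurine transporter Slc6a6 (0.75), Pxdc1 (0.75) and Pja1 (0.73). These correlations describe arrays that share dose groups. After the group means were removed, r with Sult2a6 ranged from 0.23 for Aox1 to 0.56 for Glyatl2, and r with Papss2 from 0.57 for Slc6a6 to 0.64 for Prodh. These values come from the same arrays on which the genes were picked for a high r, so the choice can raise them.

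Of 59 other genes measured in 5 lists around sulfation, 1 was called at 641 mg/kg, beside the 1.65% called over all probe sets. Of 8 measured cytosolic sulfotransferases outside the 6, limma called none, with a median log2 change of -0.08 beside -0.0073 over all probe sets. The one with the smallest p was Sult1c3, at 0.855-fold (95% CI 0.774 to 0.944; limma adjusted p = 0.107, unadjusted p = 0.00283). Sult2a1 stood at a mean of 2.20 against 2.16 in vehicle, both below the background limit. The means of Sult4a1 and Sult1d1 also lay below it, so the lack of a call says little about these genes. None of 15 genes for PAPS supply, transport and turnover was called (median -0.036). Among them the second PAPS synthase Papss1 stood at 1.07-fold (0.973 to 1.18; limma adjusted p = 0.644), the sulfate transporter Slc26a1 at 0.889-fold (0.795 to 0.994; limma adjusted p = 0.393) and the thiosulfate sulfurtransferase Tst, the one with the smallest p, at 1.11-fold (1.04 to 1.18; limma adjusted p = 0.106).

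None of 10 sulfatase genes, which encode or activate the enzymes that remove sulfate, was called (median 0.029). Steroid sulfatase Sts had the smallest p, at 0.857-fold (0.770 to 0.954; limma adjusted p = 0.161). Of 14 Golgi sulfotransferases, which sulfate proteins and sugar chains, 1 was called, the protein tyrosine sulfotransferase Tpst1. It fell 1.22-fold (limma adjusted p = 0.0437), from 9.81 to 9.52, in 1 of its 2 probe sets, and the list's median was -0.11. Chst10, Chst3, Hs3st1, Chst1, Gal3st1, Chst2 and Chst12 of this list had means below the background limit. The count and the median of the Golgi list therefore rest in part on probe sets at background. None of 12 receptor genes known to act on sulfotransferase genes was called (median 0.003). They are nuclear receptors except for the aryl hydrocarbon receptor Ahr, which is not of that family. By the brightest probe set of each gene, the smallest p was that of Ahr (limma adjusted p = 0.647). Its means of 4.42 in vehicle and 4.61 at 641 mg/kg both lay below the background limit. A dimmer probe set of Hnf4a had a smaller p, at 1.17-fold (1.02 to 1.34; limma adjusted p = 0.325). At 64.1 mg/kg none of the genes in these 5 lists was called. Slc26a2, Slc13a1, Sulf1, Arsg, Vdr and Esr1 also had means below the background limit, where the lack of a call says little.

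**Figure D4:**
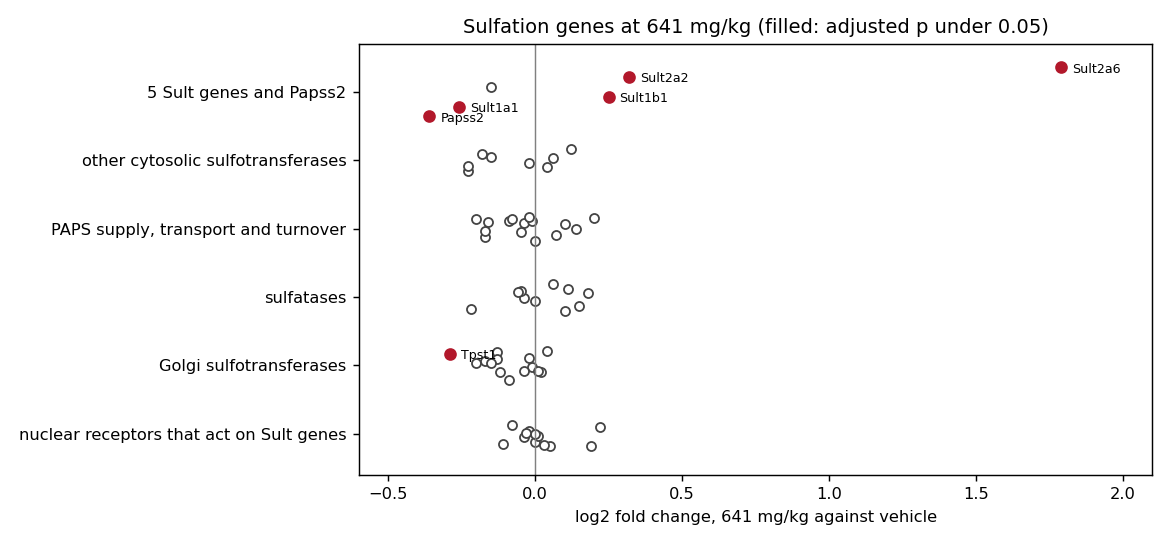
Log2 fold change at 641 mg/kg against vehicle (horizontal axis), 1 point per gene from its brightest probe set, in rows by gene list, filled and named where the limma adjusted p was under 0.05. Sult2a6 stands apart at 1.79, and 1 gene outside the 6, Tpst1, is filled, at -0.29.

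Because sulfotransferase levels differ by sex in rats, sex-dependent liver genes are given beside them. Of 9 male-predominant genes other than Sult1e1, 3 were called higher at 641 mg/kg and 1 lower, with a median of 0.025, and Cyp3a18 rose 1.99-fold while Hao2 fell 1.27-fold. Over all probe sets 1.13% were called higher and 0.512% lower. At 64.1 mg/kg, where 0.0419% of all probe sets were called, Cyp3a18 was the 1 gene of this list that passed, at 1.47-fold (limma adjusted p = 0.00262). Of 6 female-predominant genes other than Sult2a2, none was called (median 0.038), and 5 had a positive and 1 a negative change. The smallest p was that of Akr1b7 (2.64 in vehicle and 3.49 at 641 mg/kg, both below the background limit; limma adjusted p = 0.0654). Prlr, above that limit with means of 6.72 and 7.55, stood at 1.77-fold (1.20 to 2.61; limma adjusted p = 0.149). Its dimmer probe sets stood at 2.28-fold (limma adjusted p = 0.249) and 2.15-fold (limma adjusted p = 0.186). The data therefore do not show that these genes were unaffected.

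Markers of liver cell types and of RNA quality were read beside these results. The 7 measured hepatocyte markers, of 8 listed, had array means of 13.34 to 13.41 on the log2 scale in vehicle and 13.25 to 13.35 at 641 mg/kg, none called. In bulk tissue, fewer cells of a type and less RNA per cell cannot be told apart. The mean of the macrophage markers in an array (8 of 10 measured, all above the background limit) lay between 8.40 and 8.77 in vehicle, while at 64.1 mg/kg it spanned 7.51 to 8.50 and at 641 mg/kg 8.16 to 8.64. The mean of the endothelial markers (6 of 8 measured) spanned 8.28 to 8.38 in vehicle and 8.14 to 8.29 at 641 mg/kg. The part of these markers in the falls of Sult1a1 and Papss2 was not tested. Of 9 stellate cell, 5 cholangiocyte, 3 neutrophil and 3 erythroid markers measured, none was called at 641 mg/kg. Of 7 lymphocyte markers, all with means below the background limit, Cd8a was called lower. The 3-prime to 5-prime difference of the actin control probe sets, a measure of RNA integrity, ran from 0.99 to 1.38 in vehicle and from 1.06 to 1.23 at 641 mg/kg.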

How the data were processed

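The authors deposited 1 log2 level for each probe set and array. RMA, which subtracts background, brings arrays to a common distribution and sums up the probes, was run with affy, per the submitters' processing notes. Its settings, versions and a genome build are not given in the sources used here. Values ran from 1.526 to 14.59 with array medians between 4.829 and 4.899, and no further normalization was applied. The 57 control probe sets were left out. Of 31042 probe sets, 20826 had 1 gene symbol, 436 several and 9780 none, and symbols were updated through a RefSeq gene table of GRCr8 (20758 by gene ID). A gene with several probe sets is represented by the brightest.

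limma 3.58.1 in R 4.3.3 fitted group as the single factor over 36 arrays, in place of the R/maanova package of the design text, with two-sided tests. P-values were adjusted over all probe sets of a contrast by Benjamini-Hochberg, and a probe set below 0.05 counts as called. The step was tested on simulated data with changes of 0.5-, 1.5-, 2- and 4-fold, of which 100%, 92%, 98% and 100% were called. Of 202 calls 7 were false. Changes smaller than 1.5-fold, the size of the called changes other than that of Sult2a6, were not simulated. No 2 arrays were identical, and correlations within groups were 0.9912 to 0.9965. Alternatives were a block for the replicate number, centring arrays on their medians, a further quantile normalization, filters on dim probe sets, other variance models, array weights, a fit on the groups compared, gene means, and leaving out each array.

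The 6 genes, the gene lists and the tests were chosen with earlier results of these data known. Named genes were all member probe sets, the called gene or the gene with the smallest p in each sulfation list, and the 5 genes most correlated with Sult2a6 and Papss2. Other named genes were chosen after their values were seen.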

Additional observations from a re-analysis of the deposited data

Results flagged for a closer look

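One array stood away from the other 5 of its group. For Papss2 (probe set 1376047_at) at 0.641 mg/kg, replicate 3 was the highest at 11.22, with the nearest array at 10.98, and the gap took up 0.637 of the group's range, just past Dixon's limit. Of 42 groups of 6 arrays examined this was 1, and chance alone marks about 1 group in 20. No call concerned that dose.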

How the results depend on the processing

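The rise of Sult2a6 and the fall of Sult1a1 at 641 mg/kg passed under every alternative and with every single array left out, with log2 changes of 1.59 to 1.96 and -0.29 to -0.24. The count of 5 called probe sets at 641 mg/kg was 2 with only the groups compared in the fit, where fewer arrays estimate the spread. Without 1 array it was 4 to 5, with Sult2a2 lost. The F test called 1 to 4 probe sets without 1 array, the slope over dose ranks 3 to 5, and 641 against 64.1 mg/kg 0 to 1. The slope over vehicle and the 4 lower doses called 0, and its sign turned for Sult2a2 (-0.008) and Papss2 1395721_at (0.005), and the cause was not tested. Sult2a2 passed neither filter on dim probe sets and has no value there.

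With the replicate number as a block, 5 probe sets were called at 641 mg/kg, 4 in the slope and 3 in the F test, and it changed no other count. Same-numbered arrays of different groups correlated at a median of 0.025 (-0.252 to 0.321), and 6 of 36 arrays correlated best with their own number, so the numbers were not taken to pair the samples.

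Signs that turned all belonged to uncalled changes near 0. Leaving out 1 array gave log2 changes of -0.04 to 0.046 for Sult1e1 at 0.06 mg/kg. At 0.641 mg/kg they were -0.051 to 0.037 for Sult2a2, -0.012 to 0.031 for Sult1b1 and -0.023 to 0.065 for Papss2 1395721_at. At 6.41 mg/kg they were -0.017 to 0.048 for Sult1a1 and -0.028 to 0.06 for Papss2 1395721_at, and at 64.1 mg/kg -0.017 to 0.072 for Sult2a2 and -0.075 to 0.013 for Papss2 1395721_at. Repeated quantile normalization gave -0.02 for Sult1e1 at 0.06 mg/kg, array weights -0.002 for Sult1b1 at 0.641 mg/kg, and leaving out the 3 arrays with the lowest macrophage markers -0.019 for Sult2a2 at 64.1 mg/kg. The causes were not tested.

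Over all probe sets, the 511 calls at 641 mg/kg became 327 with only the groups compared, 763 under the filter at a level of 6, and 335 to 507 without 1 array (335 without replicate 2 of 641 mg/kg). The 13 at 64.1 mg/kg became 3 to 28 under the other settings and 8 to 18 without 1 array (8 without replicate 3 of vehicle or replicate 4 of 64.1 mg/kg). The 75 between 641 and 64.1 mg/kg became 25 to 99, and 32 to 95 without 1 array (lowest without replicate 2 or 5 of 641 mg/kg or replicate 3 or 6 of 64.1 mg/kg). The 418 of the slope became 14 to 653, and 316 to 428 without 1 array. The 240 of the F test became 215 to 374, and 154 to 258 without 1 array (154 without replicate 2 of 641 mg/kg). The lower-dose slope and the fit without those 3 arrays were chosen after seeing the data. The slope of Sult2a2 passed without replicate 2 of vehicle (adjusted p = 0.0485).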
